A study of Mus musculus with 3 samples.

Results

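The clustered protocadherins were followed in fibroblasts of mouse visceral fat treated with oncostatin M or transforming growth factor beta 1. The members were chosen by name and biotype: protein-coding genes whose symbol is Pcdha, Pcdhac, Pcdhb, Pcdhga, Pcdhgb or Pcdhgc followed by a number. They are 58 of the 56748 genes in the deposited count table, 14 in the alpha cluster, 22 in the beta cluster and 22 in the gamma cluster. All 58 lie on the plus strand of chromosome 18 in build mm39, the alpha genes from 37063237 to 37320714, the beta genes from 37397991 to 37657532 and the gamma genes from 37794846 to 37974926.

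The visceral fat was from wild-type mice kept on high-fat food, and its stromal vascular fraction was sorted magnetically for cells negative for CD45, CD31 and Ter119. One library was of cells given recombinant mouse oncostatin M (Osm, 3 ng/mL, 24 h), one of cells given recombinant human TGF-beta1 (3 ng/mL, 24 h) and one of vehicle-kept cells, for which no time is given. The labels give neither the number, age and sex of the mice nor any pooling or passage of the cells. With 1 library per condition no difference has a replicate check and no p-value is given. Each interval in brackets is an exact 95% interval of a ratio or share of counts that compares libraries and covers counting error only.

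Clustered protocadherins are cadherin-type adhesion molecules of the cell surface, best known in neurons, where each cell uses its own combination of them and matching combinations on touching membranes recognise each other. In the alpha and gamma clusters each gene begins with a variable exon of its own, which encodes the whole extracellular part, and is spliced to constant exons shared by its cluster, while the beta genes are single-exon genes with no constant part. The last genes of the alpha and gamma clusters, Pcdhac1, Pcdhac2, Pcdhgc3, Pcdhgc4 and Pcdhgc5, form the C-type group, whose promoters are used less randomly than those of the other members. Choice among the other promoters in neurons depends on DNA methylation, CTCF and cohesin.

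The shared exons decide what the counts can show. Gm37013, Gm38666 and Gm37388, annotated genes that share the constant exons, held 0 counts in all 3 libraries, so reads from exons common to several genes were not credited to them. The count of an alpha or gamma gene was therefore set against the length of its own exons, those that no other gene on that strand shares, as CPM (counts scaled to library depth) per kb of own exon. Those lengths were taken from GENCODE M21, whose gene lengths equalled the deposited ones for 58 of 58 members. Between 0% and 29.3% of the 50-base windows in a member's own exons occurred in a transcript of another gene, above 20% only in Pcdha6 and Pcdha7. Exons of 13 members are covered in part by a gene on the opposite strand, and no label or header says whether counting used strand. Pcdhga10, whose own 2613 bases all lie under the antisense gene Gm26672, nevertheless had 236, 223 and 264 counts with Osm, TGF-beta1 and vehicle.

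The libraries held 17319872 (Osm), 18533741 (TGF-beta1) and 18336068 (vehicle) counts, and 13712 genes reached 1 CPM in at least 1 of them. Of the 7 fibroblast markers all were compared, and Pdgfra and Col1a1 were at 697.5 CPM or more in each library. The leukocyte markers Cd3e, Itgam and Cd52 were at 0 counts in all libraries, as were the neuronal genes Rbfox3, Snap25, Syt1 and Elavl4 and the glial genes Sox10 and Foxd3. Of the 11 neuronal markers only Tubb3, a tubulin, was above 5 CPM, at 119.6, 185.5 and 110.5 CPM with Osm, TGF-beta1 and vehicle, and the neurofilament gene Nefl rose to 28 counts with TGF-beta1, against 6 with vehicle. In TGF-beta1 over vehicle 5 of the 7 fibroblast markers were below vehicle, with a median log2 ratio of -0.67. Of all genes tested 48.7% were below vehicle, and 7 genes are too few to set against that share. Dcn fell (ratio 0.415) and Pi16 rose (4.40), while Pdgfra was at 0.618, Lum at 0.627, Dpp4 at 0.539, Thy1 at 0.821 and Col1a1 at 1.88. Of 5 mural markers compared Cspg4 rose (8.77, 7.43 to 10.4) and Abcc9 fell (0.404, 0.259 to 0.617), and the list's sum, 1409.7, 1407 and 1433 CPM with Osm, TGF-beta1 and vehicle, was nearly all Pdgfrb. Of 5 mesothelial markers compared Upk1b (2.06, 1.10 to 4.01) and Krt19 (2.33, 1.15 to 5.03) rose, and the sum, 40.4, 49.8 and 41.2 CPM, was mostly Wt1. Nefl, Upk1b and Krt19 were compared only because the TGF-beta1 library held them above 1 CPM. The part of these marker shifts in the results below was not tested. Of the 4 ligand response genes, Socs3 did not pass the 2-fold rule given below and was at 1.60 (1.48 to 1.74) in Osm over vehicle. Serpina3n rose at a ratio of 2.06 (1.98 to 2.15) in Osm over vehicle and Acta2 rose at 2.98 (2.90 to 3.05) in TGF-beta1 over vehicle.

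Reads of the 58 genes came mostly from the gamma cluster. It held 83.2% (82.6 to 83.7) of the members' counts with Osm, 79.0% (78.1 to 79.8) with TGF-beta1 and 82.6% (82.0 to 83.2) with vehicle. The beta cluster held 16.3%, 20.1% and 16.9% in the same libraries, and the alpha cluster 0.512%, 0.905% and 0.501%. In all, the members had 16207, 9940 and 16771 counts with Osm, TGF-beta1 and vehicle, which is 936, 536 and 915 when scaled to plain totals as CPM. The TGF-beta1 library was the one that stood apart from the other two.

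**Figure D1:**
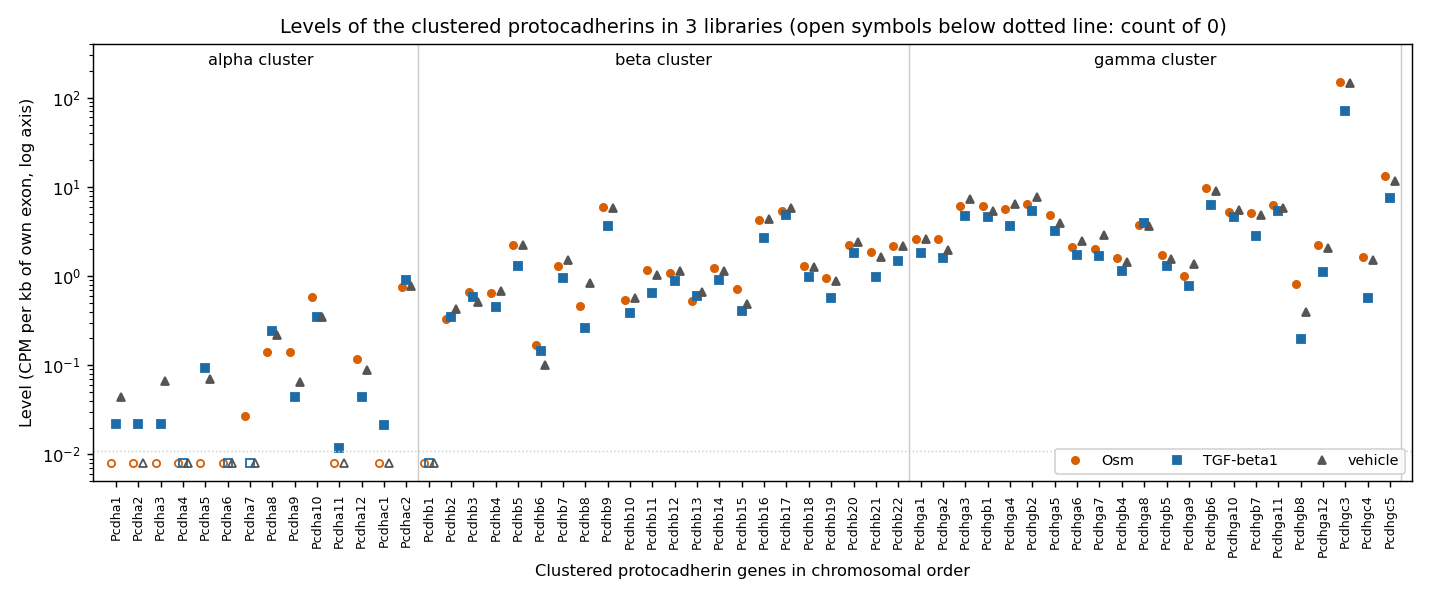
Level of each of the 58 clustered protocadherins in the Osm (circles), TGF-beta1 (squares) and vehicle (triangles) libraries, in CPM per kb of own exon on a log axis, with genes in chromosomal order and counts of 0 as open symbols below the dotted line. Pcdhgc3 stands far above all other members at 149, 70.8 and 145 with Osm, TGF-beta1 and vehicle, and most alpha genes lie near or at 0.

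A single gene, Pcdhgc3, carried more of the counts than any other member. Pcdhgc3 (ENSMUSG00000102918) is a C-type gamma gene whose protein is known to bind the Wnt pathway scaffold Axin1. It had 8766, 4411 and 8999 counts with Osm, TGF-beta1 and vehicle, or 149, 70.8 and 145 CPM per kb of own exon. That was 54.1% (53.3 to 54.9), 44.4% (43.4 to 45.4) and 53.7% (52.9 to 54.4) of all counts of the 58 members. Next by own exon length in every library was the neighbouring Pcdhgc5, at 13.3, 7.42 and 11.6 CPM per kb of own exon, followed by Pcdhgb6 at 9.75, 6.26 and 8.94. An alternative left exon bases under an antisense gene out of the length, while any reads on them stayed in the counts. It can only raise the overlapped genes, Pcdhgc3 and Pcdhga11 among them, so it does not test their rank. Pcdhgc3 was at 277, 131 and 269 CPM per kb by it, and the order after Pcdhgc3 changed. Pcdhga11 was then at 13.0, 11.4 and 12.1 CPM per kb, above Pcdhgb6 in every library and above Pcdhgc5 with TGF-beta1 and vehicle. The other C-type gamma gene, Pcdhgc4, which mouse neurons are known to need for survival, was low at 1.64, 0.562 and 1.52 CPM per kb.

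The A- and B-type genes of the gamma cluster were used broadly. All 19 had counts in every library, and their median level was 3.73, 2.78 and 3.67 CPM per kb of own exon with Osm, TGF-beta1 and vehicle. The range in the vehicle library ran from 0.391 for Pcdhgb8 to 8.94 for Pcdhgb6. Next in the vehicle library came Pcdhgb2 at 6.38, 5.30 and 7.71 and Pcdhga3 at 6.11, 4.71 and 7.29 CPM per kb. Even the highest, Pcdhgb6, made up only 25.0, 16.1 and 22.9 of the group's 204, 150.3 and 205.0 CPM.

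The beta genes were lower, with a median of 1.12, 0.757 and 1.08 CPM per kb with Osm, TGF-beta1 and vehicle. Of the 22 beta genes 21 had counts in every library, and Pcdhb1 had none in any, which allows up to 0.173 CPM with Osm and 0.163 CPM in each of the other libraries. Pcdhb9, Pcdhb16 and Pcdhb17 led the cluster and together held 42.5% (40.6 to 44.4), 44.0% (41.8 to 46.2) and 43.7% (41.8 to 45.5) of its counts, a share whose intervals overlap between the libraries. Pcdhb9 was at 5.90, 3.68 and 5.83 CPM per kb, Pcdhb17 at 5.30, 4.84 and 5.73, and Pcdhb16 at 4.22, 2.67 and 4.35. These levels lie within the range of the A- and B-type gamma genes in each library.

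The alpha cluster was barely detected. Its 14 genes had 83, 90 and 84 counts in all with Osm, TGF-beta1 and vehicle, and 5 of them had a count in every library. Pcdhac2, a C-type gene known from serotonergic neurons, had 40, 50 and 43 counts, and Pcdha10 had 25, 16 and 16. The other 12 alpha genes stayed under 1 CPM in every library, with at most 11 counts (Pcdha8 with TGF-beta1), and Pcdha4 and Pcdha6 had none. At this depth differences between libraries were not detectable in those genes.

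**Figure D2:**
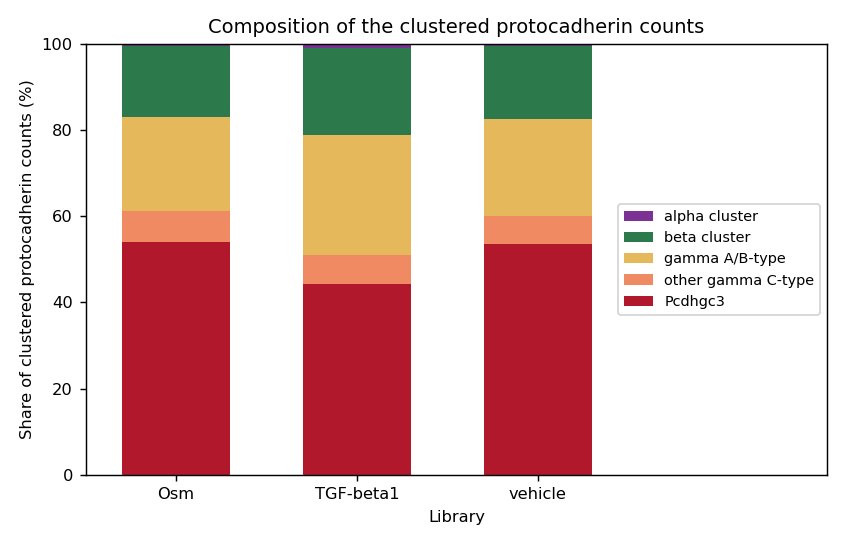
Share of all clustered protocadherin counts, in percent, that fell in Pcdhgc3, the other C-type gamma genes, the A- and B-type gamma genes, the beta cluster and the alpha cluster, for the Osm, TGF-beta1 and vehicle libraries. The Pcdhgc3 part is smaller with TGF-beta1 (44.4%) than with Osm (54.1%) or vehicle (53.7%).

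TGF-beta1 went with less RNA of the beta and gamma clusters. Summed over all 58 members, without a filter, the level was 539 CPM with TGF-beta1 and 911 CPM with vehicle, a ratio of 0.592 (0.577 to 0.607). The gamma cluster was at 0.565 (0.550 to 0.581) of vehicle and the beta cluster at 0.706 (0.666 to 0.748). The alpha cluster was at 1.07 (0.786 to 1.46), an interval too wide to tell from no difference. In bulk samples fewer cells that express a gene and less RNA per cell cannot be told apart.

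Within the gamma cluster the C-type sum, mostly Pcdhgc3 counts, was lower relative to vehicle than the sum of the others. The C-type genes summed to 275 CPM with TGF-beta1 and 548 CPM with vehicle, a ratio of 0.503 (0.486 to 0.520), against 0.733 (0.698 to 0.770) for the A- and B-type genes. The ratio of the A- and B-type genes overlapped that of the beta cluster. With Pcdhgc3 left out, the C-type sum was at 0.613 (0.556 to 0.676) of vehicle. Pcdhgc5, at 0.637, lay within the range of single A- and B-type genes, 0.499 to 1.07. Without Pcdhgc3 the gamma cluster was at 0.707 (0.676 to 0.738) of vehicle and all members at 0.710 (0.686 to 0.735). The difference between the gamma and beta sums thus rests on Pcdhgc3, while the lower level of the beta and gamma clusters in the TGF-beta1 library does not.

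**Figure D3:**
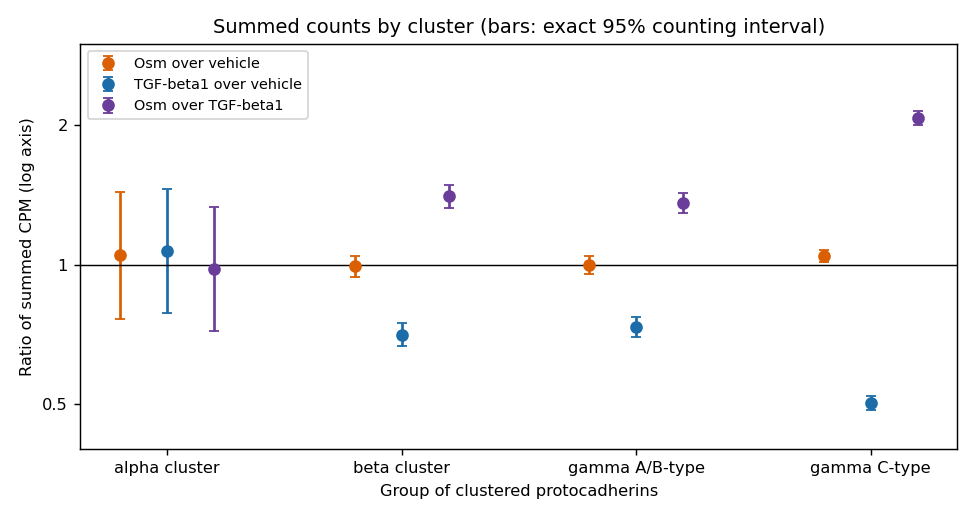
Ratio of summed CPM for the alpha cluster, the beta cluster, the A- and B-type gamma genes and the C-type gamma genes in the 3 comparisons, on a log axis with exact 95% counting intervals. In TGF-beta1 over vehicle the beta and A/B-type sums lie at 0.706 and 0.733, the C-type sum at 0.503 and the alpha sum near 1.

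Gene by gene, 44 of the 58 members reached 1 CPM in at least 1 library and were compared. The 14 left out were 12 alpha genes, Pcdhb1 and Pcdhb6. Of the 44, 40 reached 1 CPM in every library. Pcdha10 and Pcdhgb8 were above that line only with Osm, Pcdhb2 only with vehicle, and Pcdhb8 with Osm and vehicle. A gene was counted as 2-fold changed where the log2 ratio, with 0.5 added to the counts, was at least 1 in size and the interval excluded a ratio of 1.

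In TGF-beta1 over vehicle, 3 of the 44 fell at least 2-fold and none rose, where 4.79% of all genes tested fell and 2.27% rose. The 3 are 6.82% of the 44, close to that background. What set the members beside all genes was the direction of smaller differences. The log2 ratio was below 0 in 41 of 44 members (93.2%) and in 48.7% of all genes tested. The interval lay below 1 in 24 members (54.5%), against 24.2% of all genes tested, and above 1 in none, against 27.8%. The median log2 ratio was -0.52 over the members and 0.01 over all genes tested. These counts describe 1 pair of libraries, and the members share a locus and, within a cluster, sequence, so they are not independent.

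The genes that fell 2-fold were Pcdhgc3, Pcdhgc4 and Pcdhb8. Pcdhgc3 was at 239 CPM with TGF-beta1 and 489 CPM with vehicle, a ratio of 0.489 (0.472 to 0.507). Pcdhgc4 had 36 counts with TGF-beta1 and 97 with vehicle, a ratio of 0.371 (0.245 to 0.548). Pcdhb8 had 17 counts with TGF-beta1 and 54 with vehicle, a ratio of 0.314 (0.171 to 0.551). The last of these rests on few reads, and its Osm library, at 28 counts, was also below vehicle. Pcdhgc5 was lower but short of the rule, at 34.2 CPM with TGF-beta1 and 53.6 CPM with vehicle, a ratio of 0.637 (0.576 to 0.705).

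Among the 20 beta genes compared, 19 had a log2 ratio below 0 and 11 an interval below 1. The well-covered Pcdhb9 and Pcdhb16 were at 0.630 (0.527 to 0.752) and 0.614 (0.523 to 0.719) of vehicle. Pcdhb17, with 416 counts with TGF-beta1 and 491 with vehicle, was at 0.846 (0.740 to 0.966), an interval that lies above that of Pcdhb16. That pair was set side by side after the values were seen, and the interval of Pcdhb9 overlaps that of Pcdhb17. Whether beta genes differed in this ratio was not tested. Pcdhb3 was the only beta gene compared with a ratio above 1, at 1.14 (0.709 to 1.83).

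Among the 19 A- and B-type gamma genes, 18 had a log2 ratio below 0 and 10 an interval below 1. The largest differences with at least 100 counts in the vehicle library were in Pcdhga12, at 94 counts with TGF-beta1 and 172 with vehicle (ratio 0.546, 0.420 to 0.706), Pcdhga4 (0.567, 0.442 to 0.724) and Pcdhgb7 (0.575, 0.461 to 0.715). Pcdhgb6, the highest of the group, was at 0.700 (0.601 to 0.814). At the other end, Pcdhga8 had 181 counts with TGF-beta1 and 169 with vehicle, a ratio of 1.07 (0.862 to 1.33). Pcdhga11 was at 0.941 (0.792 to 1.12) and Pcdhga10 at 0.843 (0.702 to 1.01). Pcdhga8 and Pcdhga4 have intervals that do not overlap, but the pair was picked after the values were seen. Whether the group moved as a block was not tested. In the alpha cluster Pcdhac2 was at 1.16 (0.757 to 1.79) and Pcdha10 at 0.998 (0.467 to 2.13).

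**Figure D4:**
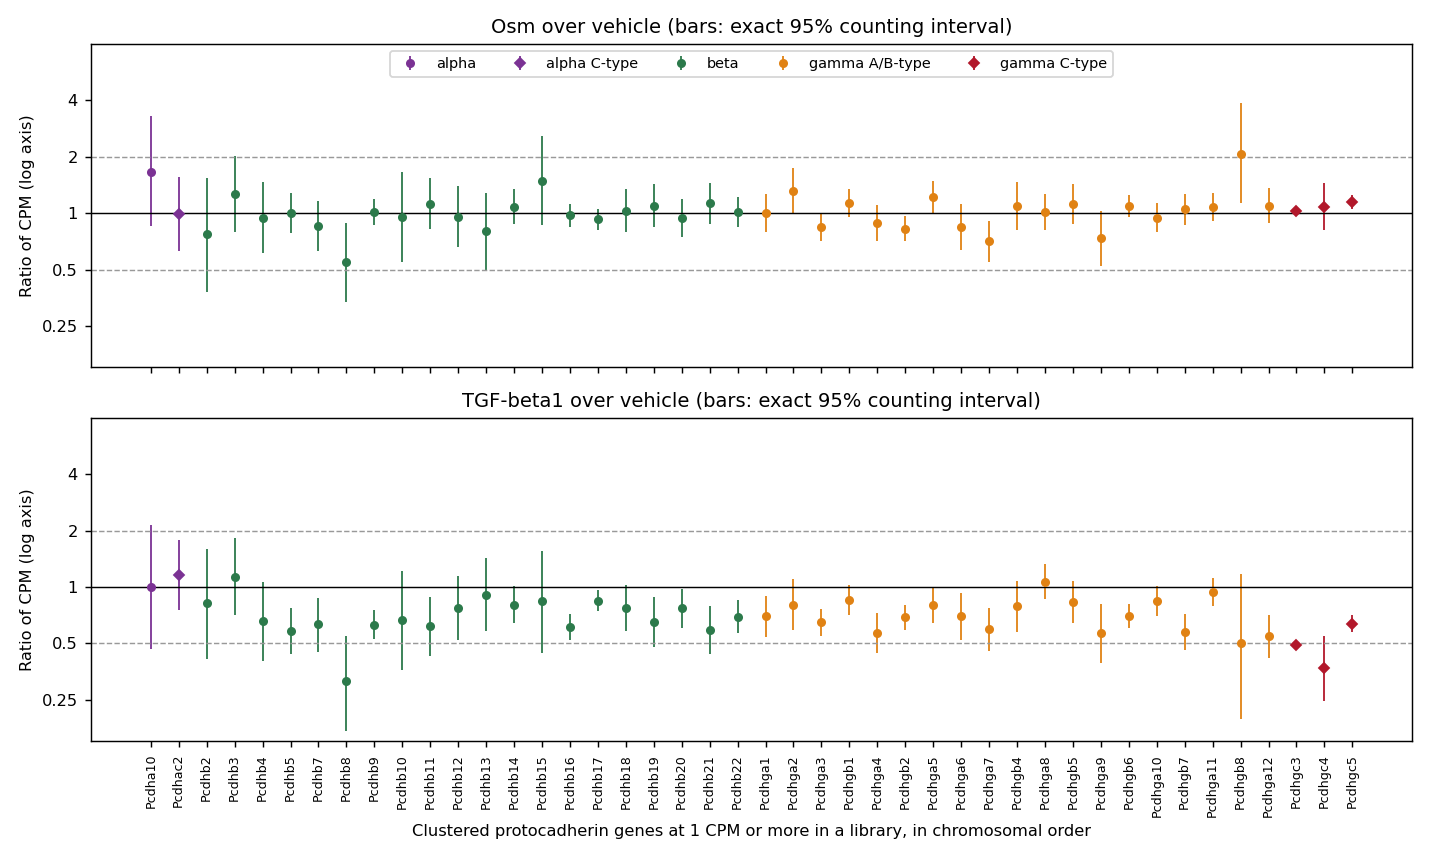
Ratio of CPM for the 44 members at 1 CPM or more in a library, Osm over vehicle above and TGF-beta1 over vehicle below, on a log axis with exact 95% counting intervals and dashed lines at 0.5 and 2. In the lower panel 41 of 44 genes lie below 1, with Pcdhb8, Pcdhgc4 and Pcdhgc3 past the 2-fold rule, while in the upper panel the genes lie on both sides of 1.

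The Osm library was close to vehicle. All members summed to 934 CPM with Osm and 911 CPM with vehicle, a ratio of 1.02 (1.003 to 1.05). That interval also starts so near 1 that its place depends on the scaling factors used. The cluster ratios were 1.05 (0.764 to 1.44) for alpha, 0.991 (0.9396 to 1.05) for beta and 1.03 (1.01 to 1.06) for gamma. Of the 44 members, 26 had a log2 ratio above 0 and 18 below (40.9%, against 49.4% of all genes tested), with a median of 0.02. The interval lay above 1 in 3 members (6.82%), against 10.9% of all genes tested, and below 1 in 4 (9.09%), against 10.6%.

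By the 2-fold rule 1 member rose with Osm, Pcdhgb8, and none fell, where 0.948% of all genes tested rose and 0.649% fell. Pcdhgb8 had 35 counts with Osm and 18 with vehicle, a ratio of 2.06 (1.14 to 3.87). It was compared only because the Osm library took it past 1 CPM, so the comparison was chosen by the library where it is high, and the call is lost at a minimum of 5 CPM or with a prior count of 2. Its count in the TGF-beta1 library was 9. Pcdhgc3 was at 1.03 (1.003 to 1.06) of vehicle and Pcdhgc5 at 1.14 (1.05 to 1.25), both C-type genes with an interval above 1. The Pcdhgc3 interval starts so near 1 that its place above 1 depends on the scaling factors used. The 4 members with an interval below 1 were Pcdhb8 (0.550, 0.335 to 0.883), Pcdhga7 (0.709, 0.551 to 0.909), Pcdhgb2 (0.828, 0.710 to 0.964) and Pcdhga3 (0.839, 0.713 to 0.985).

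Set directly against each other, Osm was above TGF-beta1 in most members. The ratio of sums was 1.40 (1.32 to 1.49) for the beta cluster, 1.82 (1.77 to 1.88) for the gamma cluster and 0.980 (0.718 to 1.33) for the alpha cluster. This comparison uses the same TGF-beta1 library as above and is not independent of it. The log2 ratio was below 0 in 4 of 44 members (9.09%), against 51.4% of all genes tested. The interval lay above 1 in 26 members (59.1%), against 24.6%, and below 1 in none, against 26.6%. The 2-fold rule counted 4 members as higher with Osm (again 9.09%, against 5.07% of all genes tested) and none as lower (against 2.42%). They were Pcdhgb8 with 35 counts with Osm and 9 with TGF-beta1 (4.13, 1.95 to 9.77), Pcdhgc4 with 99 and 36 (2.92, 1.98 to 4.41), Pcdhgc3 (2.11, 2.04 to 2.19) and Pcdhga12 with 178 and 94 (2.01, 1.56 to 2.61). Pcdhgb8 again was compared only through its Osm library. The call of Pcdhga12 is lost with DESeq2 size factors (log2 ratio 0.996), with the deposited FPKM (0.991) and with a prior count of 2 (0.993).

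The genes around the clusters lay on both sides of vehicle with TGF-beta1. Of the 18 protein-coding non-members inside the locus or within 200 kb of it, 12 were compared, and none passed the 2-fold rule in TGF-beta1 over vehicle or Osm over vehicle. Their median log2 ratio in TGF-beta1 over vehicle was -0.06. Before the alpha cluster, Hars, the cytosolic histidyl-tRNA synthetase, was at 1.39 (1.29 to 1.49) of vehicle, while Tmco6 was at 0.770 (0.619 to 0.957). Just after the gamma cluster, the formin gene Diaph1 was at 0.931 (0.870 to 0.996) and the histone deacetylase gene Hdac3 at 1.13 (1.03 to 1.24). Taf7, a subunit of the general transcription factor TFIID that lies between the beta and gamma clusters, had 65 counts with TGF-beta1 and 91 with vehicle (0.713, 0.511 to 0.991). It was the only compared protein-coding gene inside the locus, and its ratio lies among those of the members.

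Antisense transcripts inside the gamma cluster were lower as well. BC037039, a long non-coding RNA on the minus strand over the start of Pcdhgc3, had 532, 148 and 474 counts with Osm, TGF-beta1 and vehicle. Its ratio was 0.312 (0.257 to 0.376) in TGF-beta1 over vehicle and 1.19 (1.05 to 1.35) in Osm over vehicle. Gm26672, antisense to Pcdhgb7, Pcdhga10, Pcdhga11 and Pcdhga12, had 52, 13 and 38 counts and a TGF-beta1 over vehicle ratio of 0.342 (0.167 to 0.655). Both passed the 2-fold rule with TGF-beta1, and the interval of BC037039 lies below that of Pcdhgc3. These non-coding genes were named after their values were seen. Reads of a gene and its antisense partner cannot be told apart if strand was not used in counting, and their part in the Pcdhgc3 ratio was not tested.

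**Figure D5:**
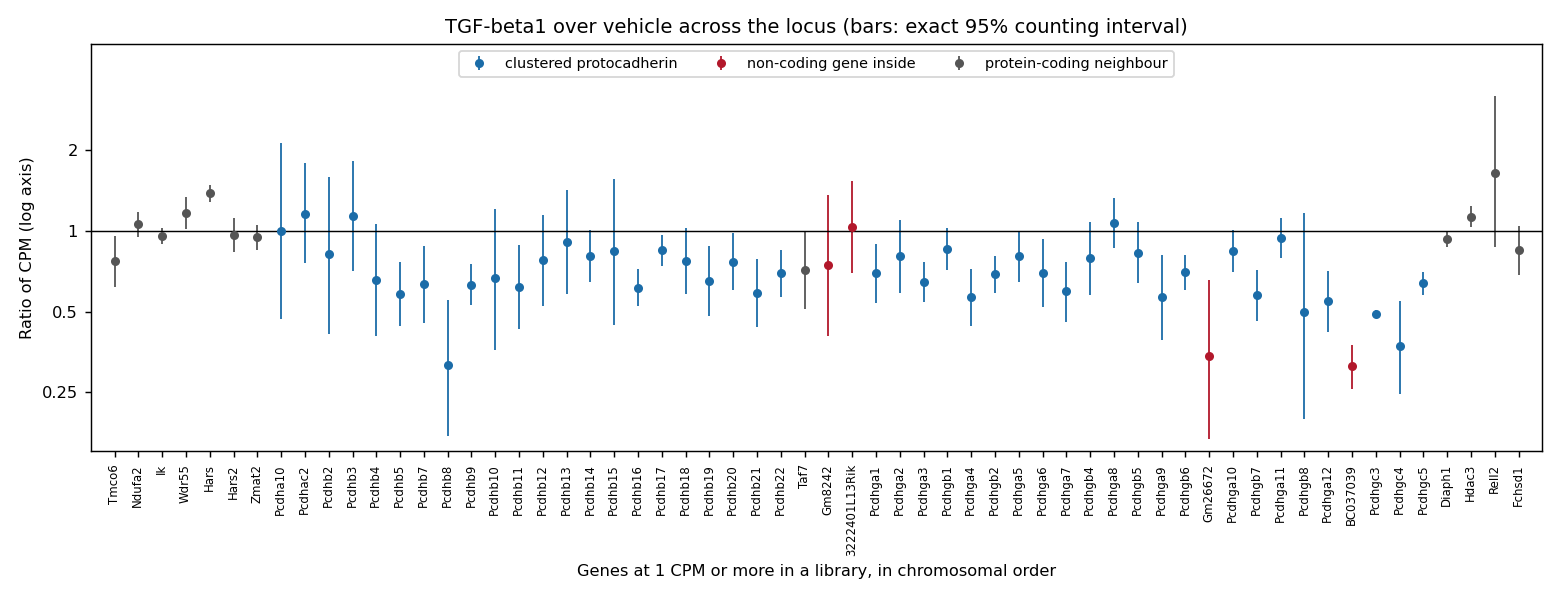
Ratio of CPM in TGF-beta1 over vehicle, on a log axis with exact 95% counting intervals, for every gene of the locus at 1 CPM or more in a library, in chromosomal order, split into clustered protocadherins, non-coding genes inside the locus and protein-coding neighbours. The protein-coding neighbours have a median log2 ratio of -0.06, while the antisense genes Gm26672 (0.342) and BC037039 (0.312) lie among the lowest points.

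Of the 12 non-clustered protocadherins 6 were compared, and 4 of these were above vehicle with TGF-beta1, as were 51.3% of all genes tested. By the 2-fold rule none rose and 1 fell, where 2.27% of all genes tested rose and 4.79% fell, and 6 genes are too few to set against those shares. Their summed level was 507, 697 and 499 CPM with Osm, TGF-beta1 and vehicle. Pcdh19, an adhesion partner of N-cadherin, was at 426 CPM with TGF-beta1 and 259 CPM with vehicle (1.64, 1.59 to 1.71), and Pcdh18 at 28.7 and 15.7 CPM (1.83, 1.59 to 2.12). Pcdh7 was at 1.14 (1.09 to 1.19). The gene that fell was Pcdh12, known from endothelium, at 0.271 CPM with TGF-beta1 and 1.25 CPM with vehicle. It fell with Osm too, to 0.115 CPM, but it was compared only because the vehicle library held it above 1 CPM, and the treated libraries held 2 (Osm) and 5 (TGF-beta1) reads. The endothelial marker list summed to 45.6, 37.9 and 56.6 CPM with Osm, TGF-beta1 and vehicle, most of it Tek, with Cldn5 at 0 in all 3 libraries and Pecam1 at most 0.271 CPM, and its part in the cluster values was not tested. Of its 7 genes 3 were compared, all 3 were below vehicle with TGF-beta1 (median log2 ratio -1.25), and Cdh5 and Vwf fell, with Vwf at 1.57 CPM with TGF-beta1 and 6.20 CPM with vehicle. The leukocyte list summed to 7.61, 4.61 and 10.1 CPM, most of it Cd68, which fell with TGF-beta1 (0.414, 0.307 to 0.552), and its part was likewise not tested.

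The giant cadherin Fat1 was at 1565 CPM with TGF-beta1 and 988 CPM with vehicle (1.58, 1.55 to 1.61), and its relative Dchs1, a ligand of Fat4, was at 0.823 (0.754 to 0.899). In the list of Fat, Dachsous and Celsr cadherins 5 of 9 genes were compared and none passed the 2-fold rule in TGF-beta1 over vehicle or in Osm over vehicle.

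All 25 CTCF, cohesin and silencing factors were compared, none passed the 2-fold rule against vehicle, and the median log2 ratio was 0.00 in TGF-beta1 over vehicle and 0.01 in Osm over vehicle. Dnmt3a, a de novo DNA methyltransferase, was at 0.816 (0.706 to 0.942) with TGF-beta1. Hells, a chromatin remodeller needed for DNA methylation, was at 5.75 CPM with TGF-beta1 and 3.10 CPM with vehicle (1.86, 1.33 to 2.61). The cohesin release factor Pds5a was at 1.08 (1.02 to 1.14) and the remodeller Atrx at 0.848 (0.7996 to 0.899). Of the 8 genes of ADAM10 and gamma-secretase, the proteases that cut these proteins, 1 fell with TGF-beta1, Aph1c, at 0.922 CPM with TGF-beta1 and 3.48 CPM with vehicle (0.265, 0.146 to 0.458). By the same rule 4.79% of all genes tested fell, and 8 genes are too few to set against that share. Adam10 itself was at 1.02 (0.968 to 1.06) and the gamma-secretase subunit Ncstn at 0.927 (0.890 to 0.966).

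Among 15 compared genes of cytoplasmic partners none passed the rule in either comparison with vehicle. The list's median log2 ratio was 0.13 in TGF-beta1 over vehicle and -0.04 in Osm over vehicle. Nckap1, a subunit of the WAVE actin regulator that the alpha constant part can recruit, was at 1.17 (1.13 to 1.21) with TGF-beta1 and the kinase gene Fyn at 1.36 (1.28 to 1.44). Marcks, an actin-binding protein known to act downstream of the gamma protocadherins, was at 0.815 (0.784 to 0.846).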

How the data were processed

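RNA was measured in 3 libraries, 1 per condition, grouped by sample title. Per the labels' protocols, polyadenylated RNA was fragmented and copied with random primers, and library types with and without strand information are described without saying which was made. The authors deposited whole-number read counts per gene and FPKM values. Build mm39 and the tools CASAVA, HISAT2, HISAT and TopHat2 are listed, with no role or version, in the submitters' processing notes. No source used here names the counter or annotation release. The deposited FPKM values served as an alternative.

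Counts were scaled to CPM with TMM factors (edgeR 4.0.16, R 4.3.3), and a gene was compared if any library held it at 1 CPM or more. A call needed a log2 ratio (prior count 0.5) of 1 or more in size and an exact 95% conditional binomial (Clopper-Pearson) interval of the ratio of counts that excluded 1. Printed ratios carry no prior. The labels describe no molecular identifiers, and intervals cover counting error only. For a count of 0 the limit was set at 3 counts. Alternatives were DESeq2 1.42.0 size factors, plain totals, FPKM, other filters, priors and fold thresholds, and sums without the highest member. Own exon lengths and 50-base windows came from GENCODE M21 (earlier build, lengths only). The ratio and interval code was tested on simulated data. Other computations used Python 3.11.15. The named genes were members at 1 CPM or more, the 3 with most counts per cluster, of each pathway list and comparison with vehicle the 2 with the largest ratio (at 5 CPM or more) and the 2 with the highest level, protein-coding genes inside the locus or within 200 kb, and 4 ligand response genes. Cell type markers and list genes called outside that rule were named after their values were seen. Members, lists and tests were chosen with earlier results of these data known.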

Additional observations from a re-analysis of the deposited data

How the results depend on the processing

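With 1 library per condition no replicate could be left out, and at this depth the low alpha genes allowed no comparison. No paired analysis was possible because each condition has 1 library. Of the 183 alternative values of the main results, 138 stayed within counting error or, for counts of genes, within 1.5 times the main count. Leaving out beta genes whose span overlaps another gene left 0 of 22 genes, so that alternative gave no value. In its place, an alternative chosen after seeing the data left out those whose exons overlap, and the 19 remaining genes gave a log2 ratio of -0.49 in TGF-beta1 over vehicle, against -0.50 for all 22. Scaling by DESeq2 size factors or plain totals changed no count of members called in comparisons with vehicle.

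In TGF-beta1 over vehicle the gamma sum, -0.82 in log2, was -0.50 without Pcdhgc3 and, in alternatives added after seeing the data, -0.45 over A- and B-type members and -0.99 over C-type members. In Osm over TGF-beta1 the 0.87 became 0.54, 0.44 and 1.05. In Osm over vehicle the gamma sum of 0.04 turned to -0.00378 over A- and B-type members. The Osm call of Pcdhgb8 was lost (0 members) at a minimum of 5 CPM and with a prior count of 2, and Pcdhga12 in Osm over TGF-beta1 lost its call with DESeq2 size factors, FPKM or a prior of 2. At 1.5-fold, of the 44 members compared 17 were lower with TGF-beta1, 1 lower with Osm, and 17 higher in Osm over TGF-beta1. Over all 13712 genes tested, 1.5-fold gave 288 higher and 228 lower in Osm over vehicle. It gave 824 and 1307 in TGF-beta1 over vehicle, and 1361 and 845 in Osm over TGF-beta1. A minimum of 5 CPM, which keeps fewer genes, gave 13 and 10, 124 and 306, and 307 and 144. No filter gave 237 and 231 in Osm over vehicle.

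The gamma share with Osm, TGF-beta1 and vehicle was 80.0%, 75.4% and 79.3% by FPKM, 67.6%, 67.9% and 67.1% without the highest member of each cluster, and 86.7%, 83.5% and 86.3% per own exonic base (added after seeing the data). The beta share was 19.6%, 23.7% and 20.3% by FPKM, 31.8%, 31.3% and 32.3% without the highest members, and 12.6%, 15.4% and 13.1% per own exonic base. The alpha share with Osm was 0.636% per own exonic base. Each alternative changes the length or the members counted, so its shares are not on the scale of the main ones. Without the highest members the gamma share with TGF-beta1 (67.9%) was no longer below that with Osm (67.6%) or vehicle (67.1%). The lower gamma share of the TGF-beta1 library in the main values thus rests on those highest members, Pcdhgc3 in the gamma cluster.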
